A study of Drosophila melanogaster with 12 samples.

Results

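The Hsp70 gene copies of Drosophila melanogaster are 6 near-identical genes in clusters at cytological bands 87A and 87C of chromosome arm 3R. They were taken by symbol from a raw count table of 23793 rows over 12 RNA-seq libraries, and all 6 were present and passed the filter on low counts: Hsp70Aa and Hsp70Ab at 87A, and Hsp70Ba, Hsp70Bbb, Hsp70Bb and Hsp70Bc at 87C. The copies were chosen by their counts in these same libraries, for patterns unlike each other, so their values are given as a description, with no test. Each library was made from 50 heads of male flies aged 3 days, and each of the 4 genotypes has 3 libraries. In all 4 genotypes the nSyb driver, which is active in neurons throughout the nervous system, drives a construct: dYEATS2 IR (dYEATS2-IR libraries), dENL/AF9 IR (dENL/AF9-IR), Luciferase IR (NTC IR-2) or mCherry IR (NTC IR-1). The last 2 carry constructs against sequences from outside the fly genome and serve here as the controls. The driver acts in neurons while the RNA comes from whole heads, so fewer cells of a type and less RNA per cell cannot be told apart.

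Hsp70 is a chaperone that binds unfolded stretches of other proteins and releases them through cycles of ATP use, helped by J-domain co-chaperones. The fly Hsp70 copies are intronless, are close to silent in unstressed tissue, and are switched on by heat and other stress through the heat shock factor Hsf. RNA polymerase II waits shortly after their start sites and is released by P-TEFb, the elongation kinase. YEATS2 is a subunit of the ATAC histone acetyltransferase complex, and the fly relative of ENL and AF9, ear, belongs to the super elongation complex that carries P-TEFb.

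In the BDGP6.54 annotation (dm6 coordinates), Hsp70Aa (FBgn0013275) lies at 3R 11954163 to 11956544 on the minus strand and Hsp70Ab (FBgn0013276) at 11958535 to 11960909 on the plus strand, 1990 bp apart and pointing away from each other. Hsp70Ba (FBgn0013277) follows 504543 bp further on, at 12465453 to 12467776 on the minus strand. The other 87C copies form a row on the plus strand: Hsp70Bbb (FBgn0051354) at 12502510 to 12504856, Hsp70Bb (FBgn0013278) at 12505793 to 12508139, and Hsp70Bc (FBgn0013279) at 12509076 to 12511461, with 936 bp between neighbours in the row. Each copy has 1 annotated transcript with 1 exon, of 2324 to 2386 bases. How reads that match several copies were placed, and which counting program made the table, are not given in the sources used here. Reads of one copy may therefore stand in the row of another, and every difference between copies below carries that uncertainty.

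**Figure D1:**
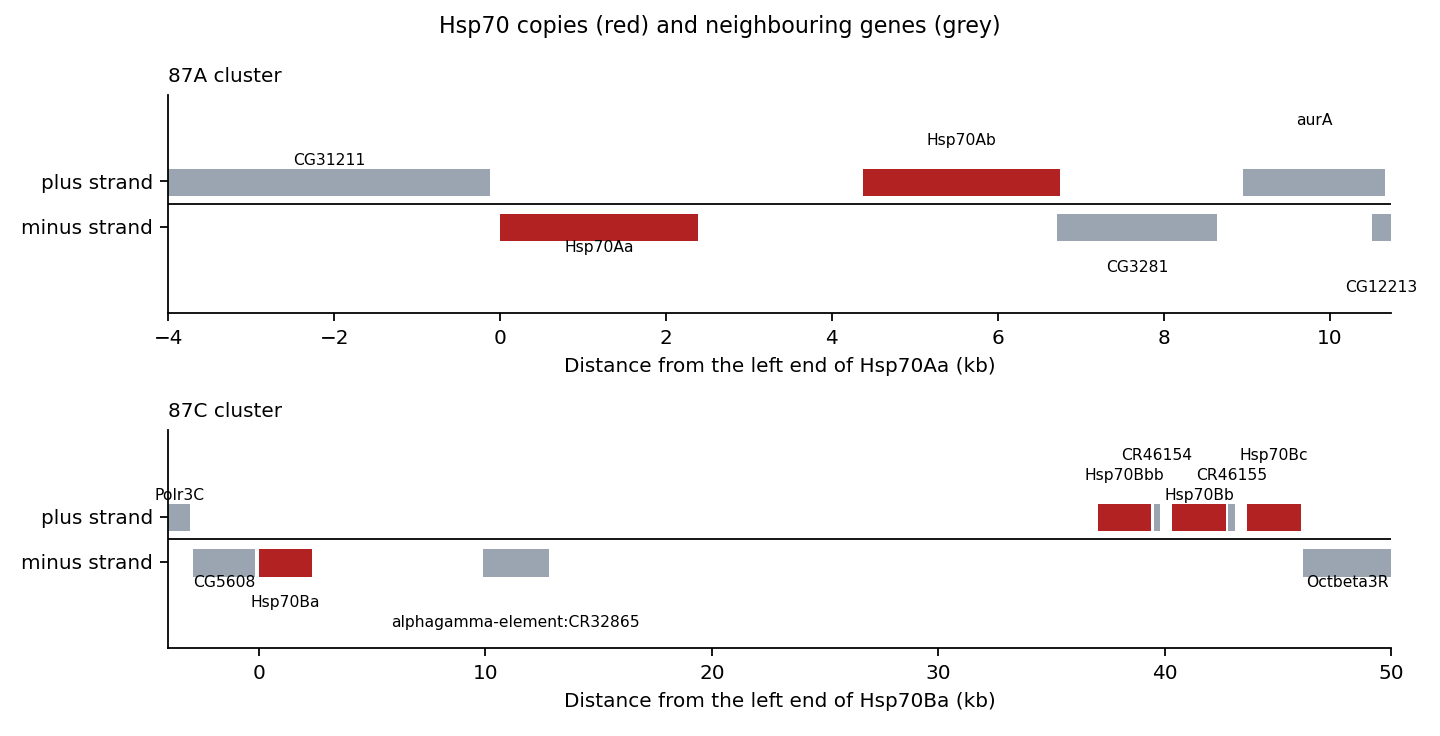
Positions of the Hsp70 copies (red) and of annotated neighbouring genes (grey) at 87A and 87C, with distance in kb from the left end of Hsp70Aa or Hsp70Ba on the horizontal axis and strand on the vertical axis. Transposable elements are not drawn; the 87A copies point apart, and Hsp70Bbb, Hsp70Bb and Hsp70Bc stand in a row on the plus strand.

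Library totals ran from 30298251 to 54132559 counts, and 14.8% to 32.3% of a library was mt:lrRNA. The group names are uncertain. In the deposited normalized table every library of the count table reappears under another group's name: the count table's dYEATS2-IR is called NTC IR-2 there, its dENL/AF9-IR is called dYEATS2-IR, its NTC IR-2 is called NTC IR-1, and its NTC IR-1 is called dENL/AF9-IR. The genes of the targeted proteins did not settle it. D12, which encodes fly YEATS2, averaged 8.827 ± 0.281 CPM (counts scaled to a common library size by edgeR's TMM) in dYEATS2-IR and 9.045 ± 0.966 CPM in NTC IR-1 (SD, n = 3 each), a log2 fold change of -0.03 (edgeR FDR 0.919). The ear gene averaged 40.61 ± 2.92 CPM in dENL/AF9-IR and 41.98 ± 7.36 CPM in NTC IR-2 (log2 fold change -0.05, edgeR FDR 1). Under the normalized table's names, dENL/AF9-IR against NTC IR-2 sets the count table's NTC IR-1 against its dYEATS2-IR. There ear averaged 31.99 ± 1.12 and 37.62 ± 2.2 CPM, lower in dENL/AF9-IR without overlap but not called (edgeR FDR 0.281). Of all rows tested, 15.0% differed without overlap in that direction. D12 under those names averaged 7.763 ± 0.923 CPM in dYEATS2-IR and 7.744 ± 0.854 CPM in NTC IR-1. Groups are called below by their count-table names. Summed markers of neurons (elav, nSyb, Syt1, brp) lay between 3006 and 5326 CPM over all 12 libraries, but at 4453 to 5326 CPM in NTC IR-2 and 3006 to 3498 CPM in NTC IR-1. Summed photoreceptor markers (ninaE, chp, ninaC) lay between 32399 and 36770 CPM in dYEATS2-IR, against 17491 to 27545 CPM in NTC IR-1. Summed fat body markers (apolpp, Lsp2, FASN1, to) lay between 600 and 810 CPM in dYEATS2-IR, against 1057 to 2468 CPM in NTC IR-1. The yolk protein genes Yp1, Yp2 and Yp3, markers of female fat body, summed to 1254 to 1883 CPM in the NTC IR-1 libraries and to 11.8 to 36.1 CPM in the other 9, although all heads are labelled male. Of the glial markers, alrm averaged 16.61 ± 3.32 CPM in dYEATS2-IR, 4.762 ± 2.44 CPM in NTC IR-2 and 31.94 ± 5.24 CPM in NTC IR-1, while repo (29.76 ± 2.97 CPM in NTC IR-1) and moody (37.42 ± 2.53 CPM) differed less. The part of these differences in the comparisons with NTC IR-1 was not tested.

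The 87A pair was low in all dYEATS2-IR libraries and, in each other group, low in some libraries and far higher in others. Hsp70Aa stood at 6.03, 9.56 and 16.0 CPM in dYEATS2-IR replicates 1 to 3, against 253, 250 and 9.61 CPM in NTC IR-1. It stood at 7.75, 6.89 and 587 CPM in dENL/AF9-IR replicates 1 to 3, against 27.0, 313 and 22 CPM in NTC IR-2. Of the 12 libraries, 4 thus stood above 200 CPM: dENL/AF9-IR replicate 3, NTC IR-2 replicate 2, and NTC IR-1 replicates 1 and 2. Hsp70Ab had the same 4 highest libraries, with 7.65, 13.0 and 18.3 CPM in dYEATS2-IR against 299, 293 and 9.54 CPM in NTC IR-1. Its values were 8.92, 7.29 and 646 CPM in dENL/AF9-IR, against 27.0, 361 and 24.6 CPM in NTC IR-2. Per kb of transcript, Hsp70Ab lay at 0.996 to 1.36 times Hsp70Aa over the 12 libraries, so this pair moved almost as 1 gene. Within a group the highest library of Hsp70Aa exceeded the lowest 85.1-fold in dENL/AF9-IR, 14.2-fold in NTC IR-2 and 26.4-fold in NTC IR-1, but only 2.65-fold in dYEATS2-IR.

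Hsp70Bc, the last gene of the 87C row, followed the 87A pair rather than its neighbour Hsp70Bb. It had 2.40, 2.85 and 5.10 CPM in dYEATS2-IR replicates 1 to 3, against 153, 150 and 4.6 CPM in NTC IR-1. In dENL/AF9-IR it had 4.4, 3.79 and 206 CPM, against 8.40, 90.9 and 9.85 CPM in NTC IR-2. Per kb it stayed at 0.290 to 0.603 times Hsp70Aa in all 12 libraries. Its lowest value rests on 82 counts in dYEATS2-IR replicate 1, with an exact Poisson 95% interval of 65.2 to 102 counts that covers counting error only.

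Hsp70Bbb and Hsp70Ba also had the same 4 highest libraries, but were less low in dYEATS2-IR than the 87A pair. Hsp70Bbb, the first gene of the row, had 15.1, 13.8 and 21.0 CPM in dYEATS2-IR, against 209, 189 and 5.57 CPM in NTC IR-1. Its values were 5.09, 4.82 and 183 CPM in dENL/AF9-IR, against 12.6, 87.9 and 13.9 CPM in NTC IR-2. Hsp70Ba, which stands apart from the row on the opposite strand, had 11.5, 10.9 and 12.9 CPM in dYEATS2-IR, against 65.9, 64.6 and 2.20 CPM in NTC IR-1. Its values were 2.21, 1.81 and 49.1 CPM in dENL/AF9-IR, against 9.13, 31.8 and 7.93 CPM in NTC IR-2. Relative to Hsp70Aa per kb, Hsp70Bbb stood at 2.54, 1.46 and 1.33 in dYEATS2-IR and between 0.285 and 0.839 in the other 9 libraries. The same ratio for Hsp70Ba was 1.96, 1.17 and 0.829 in dYEATS2-IR and 0.0857 to 0.369 elsewhere.

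Hsp70Bb, the middle gene of the row, was highest in dYEATS2-IR, where every other copy lay below its 4 highest libraries. Hsp70Ba in dYEATS2-IR (10.9 to 12.9 CPM) still lay above its low libraries in the other groups (1.81 to 9.13 CPM). Hsp70Bbb (13.8 to 21 CPM) overlapped its own (4.82 to 13.9 CPM). Hsp70Bb stood at 476, 426 and 529 CPM in dYEATS2-IR replicates 1 to 3, against 281, 257 and 30.3 CPM in NTC IR-1. It had 28.2, 31.4 and 322 CPM in dENL/AF9-IR, against 160, 284 and 107 CPM in NTC IR-2. The 3 dYEATS2-IR libraries lay above the other 9. Outside dYEATS2-IR, Hsp70Bb was highest in the same 4 libraries as the other copies, at 257 to 322 CPM, and its low libraries lay between 28.2 and 31.4 CPM for dENL/AF9-IR and NTC IR-1 and were 107 and 160 CPM for NTC IR-2. The other 5 copies had the same step between low libraries, smaller in CPM: for Hsp70Aa, 6.89 to 9.61 CPM in dENL/AF9-IR and NTC IR-1, and 22 and 27.0 CPM in NTC IR-2. Per kb, Hsp70Bb exceeded Hsp70Aa 80.0-, 45.2- and 33.6-fold in dYEATS2-IR, and the ratio lay between 0.557 and 6.01 in the other 9 libraries. Against Hsp70Bc, which starts 936 bp after it ends, the ratio per kb was 201, 152 and 105 in dYEATS2-IR, while NTC IR-1 had 1.86, 1.74 and 6.71. The same ratio was 6.53, 8.44 and 1.59 for dENL/AF9-IR, while NTC IR-2 had 19.4, 3.17 and 11.1.

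**Figure D2:**
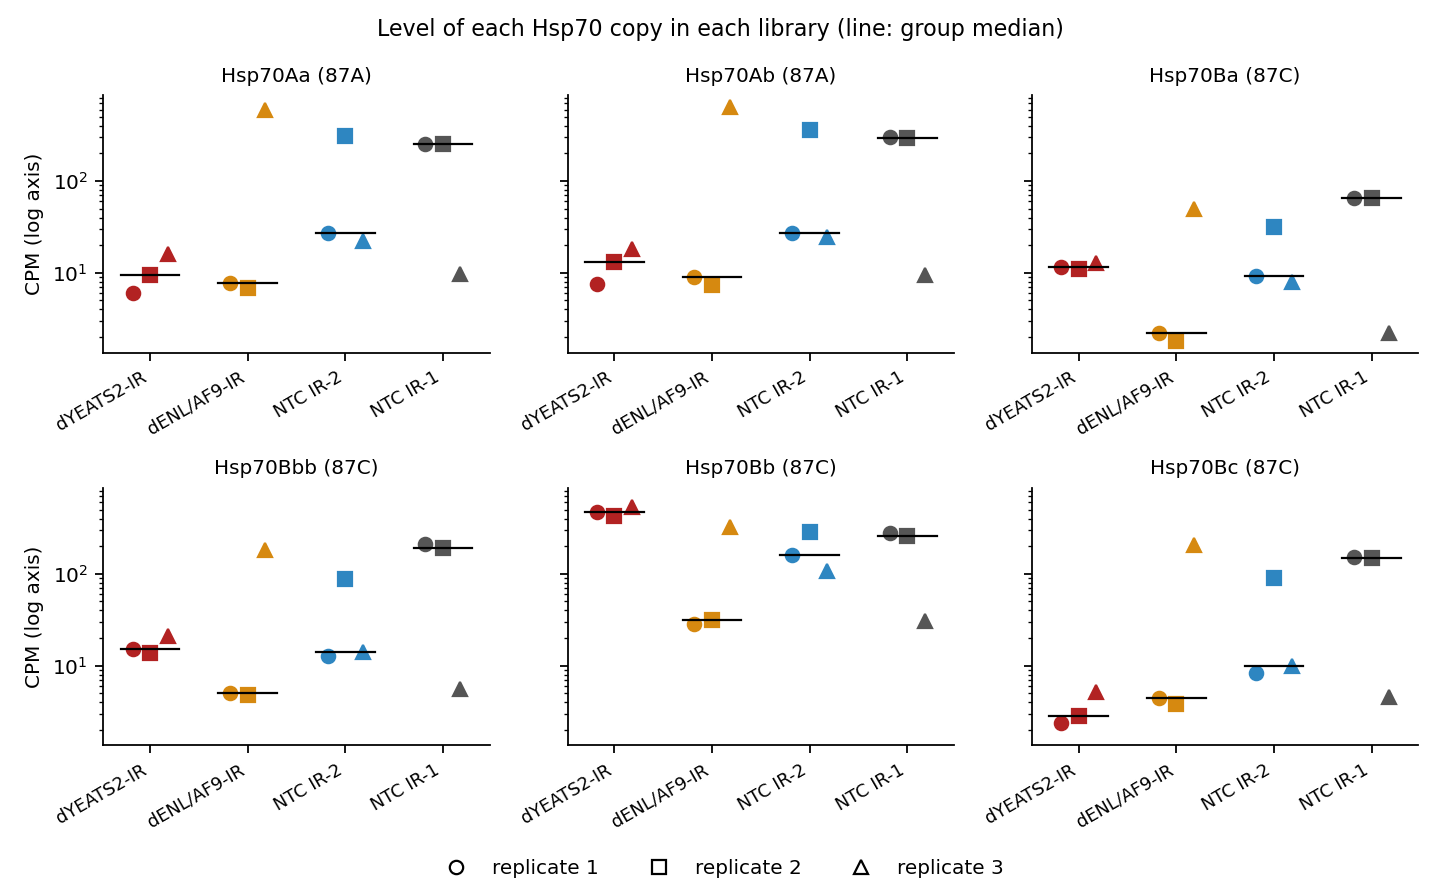
Level of each Hsp70 copy (CPM, log axis) in each of the 12 libraries by group; points are libraries and lines are group medians. Hsp70Bb lies between 426 and 529 CPM in dYEATS2-IR, where Hsp70Aa and Hsp70Ab lie between 6.03 and 18.3 CPM.

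The white gene w, an eye pigment transporter gene used as a marker in many fly transgenes, was also highest in dYEATS2-IR. It stood at 3215, 3710 and 4312 CPM in dYEATS2-IR and at 29.0 to 43.7 CPM in the other 9 libraries. In those 9 it did not follow Hsp70Bb, which ran from 28.2 to 322 CPM. The y gene was lowest in dYEATS2-IR instead, at 0.176, 0.371 and 0.421 CPM. It lay at 31.7, 33.3 and 67 CPM in dENL/AF9-IR, against 183, 213 and 123 CPM in NTC IR-2 and 142 to 188 CPM in NTC IR-1. Many fly transformation vectors carry stretches of an Hsp70 gene, and the vectors of these flies are not given in the sources used here. The part of transgene sequence in the Hsp70Bb counts was not tested.

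Hsp70Bb made up most of the Hsp70 counts in dYEATS2-IR. Its share of the counts of all 6 copies was 91.8% (exact binomial 95% interval 91.4% to 92.2%), 89.5% (89% to 90%) and 87.8% (87.4% to 88.3%) in dYEATS2-IR replicates 1 to 3. In NTC IR-1 it was 22.3% (21.9% to 22.6%), 21.3% (21% to 21.7%) and 49% (47.2% to 50.9%). In dENL/AF9-IR it was 49.9% (48.1% to 51.7%), 56.1% (54.2% to 57.9%) and 16.2% (15.9% to 16.4%), against 65.6% (64.4% to 66.7%), 24.3% (23.9% to 24.7%) and 57.8% (56.8% to 58.8%) in NTC IR-2. These intervals cover counting error only, and libraries of the same group lay outside each other's intervals. The 4 libraries above 200 CPM of Hsp70Aa had shares of 16.2% to 24.3%, below those of the other 8. Hsp70Aa sets these 4 libraries and is part of the summed counts, so nothing is read from that order. All copies together took 2813 to 87786 counts per library, 0.0052% to 0.189% of its total.

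**Figure D3:**
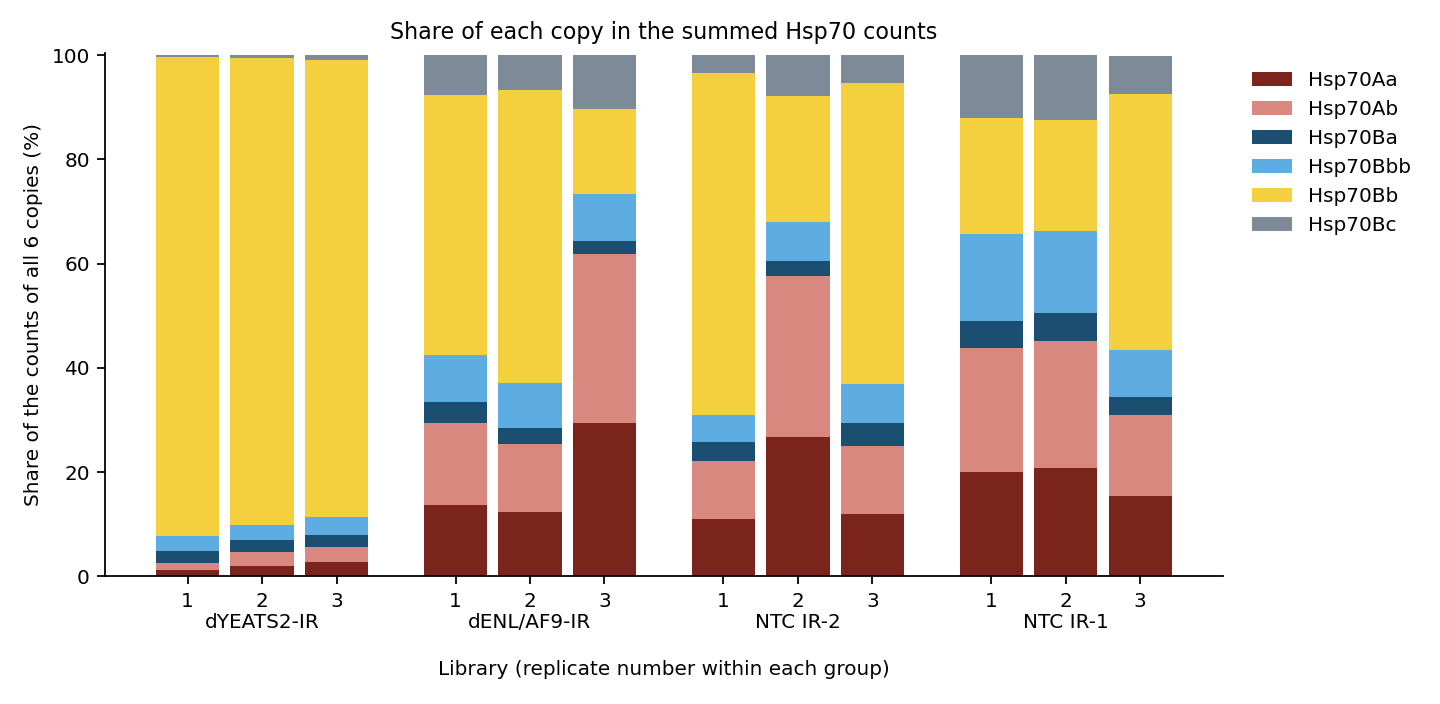
Share of each copy in the summed Hsp70 counts (%, vertical axis) for each library, ordered by group and replicate. Hsp70Bb (yellow) fills 87.8% to 91.8% of the bar in dYEATS2-IR, and 16.2% to 24.3% in the 4 libraries where Hsp70Aa is above 200 CPM.

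The 2 clusters differed in dYEATS2-IR chiefly through Hsp70Bb. The 87C copies summed to 505, 454 and 568 CPM in dYEATS2-IR against 709, 661 and 42.7 CPM in NTC IR-1, while the 87A copies summed to 13.7, 22.6 and 34.3 CPM against 552, 543 and 19.2 CPM. Per kb, 87C exceeded 87A 37.4-, 20.4- and 16.8-fold in dYEATS2-IR, against 1.30-, 1.23- and 2.26-fold in NTC IR-1. The ratio was 2.42, 2.99 and 0.623 in dENL/AF9-IR, against 3.57, 0.742 and 3.02 in NTC IR-2. With Hsp70Bb left out, the 87C to 87A ratio per kb was 2.15, 1.24 and 1.16 in dYEATS2-IR and 0.315 to 0.783 in the other 9 libraries, so the 3 dYEATS2-IR libraries remained highest.

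**Figure D4:**
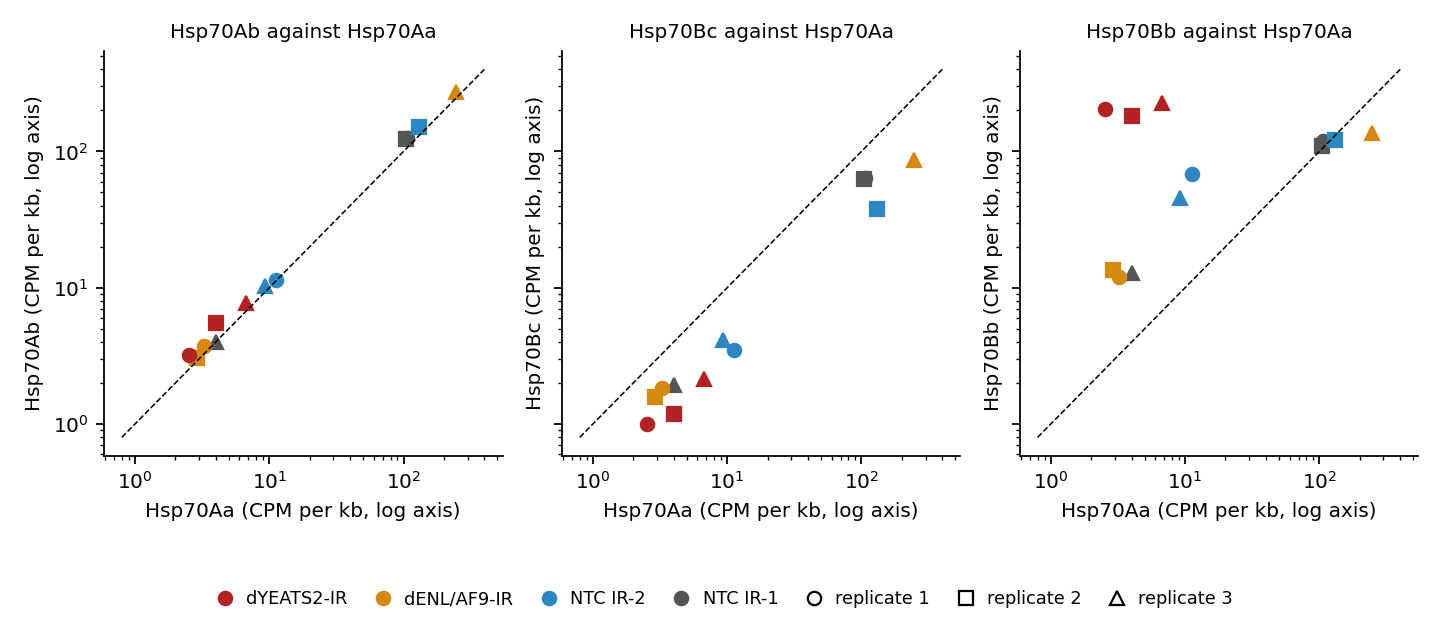
Hsp70Ab, Hsp70Bc and Hsp70Bb against Hsp70Aa (CPM per kb, log axes); each point is a library, colour gives the group, shape the replicate, and the dashed line marks equal levels. Hsp70Ab lies near the line and Hsp70Bc below it, at 0.290 to 0.603 times Hsp70Aa, while Hsp70Bb lies 33.6- to 80.0-fold above Hsp70Aa in dYEATS2-IR.

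As differences of mean log2 CPM (0.5 counts added), dYEATS2-IR minus NTC IR-1 was -3.12 for Hsp70Aa, -2.95 for Hsp70Ab, -3.85 for Hsp70Bc, -1.89 for Hsp70Bbb, -0.84 for Hsp70Ba and 1.87 for Hsp70Bb. The SD of log2 CPM over the 3 libraries of a copy was 0.12 to 0.70 in dYEATS2-IR and 1.82 to 2.98 in NTC IR-1. The libraries of the groups overlapped for 5 of 6 copies, since NTC IR-1 replicate 3 was as low as dYEATS2-IR or lower. Hsp70Bb alone did not overlap (1 of 6, higher in dYEATS2-IR), where 15.0% of all rows tested had non-overlapping libraries with dYEATS2-IR higher and 14.3% with dYEATS2-IR lower. The copies were chosen by their counts in these same libraries, so nothing is read from that count. Summed over a cluster, the difference was -3.03 for 87A and 0.90 for 87C. Without the 4 libraries above 200 CPM of Hsp70Aa, which leaves NTC IR-1 with replicate 3 alone, it was 0.20 for 87A and 3.57 for 87C.

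For dENL/AF9-IR minus NTC IR-2 the difference in mean log2 CPM ran from -1.36 for Hsp70Bb to -0.38 for Hsp70Bc, with libraries overlapping for all 6 copies, where 4.59% of rows tested lay without overlap higher and 4.63% lower. Each of these groups held 1 library above 200 CPM of Hsp70Aa, and the SD within a group reached 3.65. For NTC IR-2 minus NTC IR-1, control against control, the difference ran from -1.28 for Hsp70Bbb to 0.39 for Hsp70Bb, again overlapping for all 6 copies, where 16.6% of rows tested lay without overlap higher and 16.9% lower. The comparisons with NTC IR-1 share its libraries, and those that use NTC IR-2 share them too.

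Hsp70Aa averaged 10.5 ± 5.05 CPM in dYEATS2-IR, 201 ± 335 CPM in dENL/AF9-IR, 121 ± 166 CPM in NTC IR-2 and 171 ± 140 CPM in NTC IR-1 (SD, n = 3 each). By mean, dENL/AF9-IR was thus highest, followed by NTC IR-1, NTC IR-2 and dYEATS2-IR, but its place rests on replicate 3 (587 CPM). By median it was lowest, at 7.75 CPM, where dYEATS2-IR stood at 9.56, NTC IR-2 at 27.0 and NTC IR-1 at 250 CPM. Neighbours in the order of means overlapped, except dYEATS2-IR and NTC IR-2, and Hsp70Ab gave the same order and the same exception. Hsp70Bc, Hsp70Bbb and Hsp70Ba shared another order of means, highest in NTC IR-1, then dENL/AF9-IR, NTC IR-2 and dYEATS2-IR. The dENL/AF9-IR means of these 3 rest on replicate 3 as well: by median Hsp70Ba had 11.5 CPM in dYEATS2-IR, 2.21 in dENL/AF9-IR, 9.13 in NTC IR-2 and 64.6 in NTC IR-1. Hsp70Bc averaged 3.45 ± 1.45 CPM in dYEATS2-IR and 103 ± 84.9 CPM in NTC IR-1, and Hsp70Ba 11.8 ± 1.03 CPM in dYEATS2-IR and 44.3 ± 36.4 CPM in NTC IR-1. Of their neighbours in that order, only Hsp70Bc in dYEATS2-IR and NTC IR-2 did not overlap. Hsp70Bb averaged 477 ± 51.3 CPM in dYEATS2-IR, 127 ± 169 CPM in dENL/AF9-IR, 184 ± 90.6 CPM in NTC IR-2 and 189 ± 138 CPM in NTC IR-1. Its order was dYEATS2-IR, NTC IR-1, NTC IR-2 and dENL/AF9-IR, and only dYEATS2-IR and NTC IR-1 did not overlap as neighbours. The share of all rows without overlap was not computed for dYEATS2-IR against NTC IR-2. Nothing is read from the overlaps in these orders, since the copies were chosen by the same values.

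The 4 libraries highest in Hsp70Aa were also the 4 highest for 7 of the 13 other inducible heat shock genes, where the same held for 0.419% of all rows tested. It held too for every Hsp70 copy but Hsp70Bb, from which nothing is read, since Hsp70Aa sets the 4 libraries and the copies were chosen by these values. The 7 genes were the small heat shock protein genes Hsp22, Hsp23, Hsp26 and Hsp27, Hsp68 (an inducible Hsp70 relative), starvin (stv, a BAG-domain co-chaperone of Hsp70) and the αγ element RNA of 87C. The other 6 inducible genes, for which it did not hold, were Hsp67Ba, CG4456, Hsp67Bc, Hsp83, DnaJ-1 and the nuclear RNA gene Hsromega. CG4456 had only 0 to 65 counts per library, and its annotated span on the plus strand covers all of Hsp22. Hsp68 stood at 206 to 439 CPM in those 4 libraries and at 6.15 to 30.8 CPM in the other 8. Hsp26 stood at 194 to 259 CPM against 6.16 to 23.4 CPM, and Hsp27 at 53.8 to 91.9 CPM against 1.61 to 5.48 CPM. The RNA of Hsf, their activator, did not follow, with 52.2 to 61.7 CPM in the 4 libraries and 50.2 to 59.2 CPM in the other 8. The activity of the Hsf protein was not measured. The same 4 libraries were highest for 0 of 7 constitutive Hsp70 relatives and chaperonin genes, 1 of 13 co-chaperone genes (CG1416) and 0 of 19 genes that act in Hsp70 transcription.

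The 4 high libraries were not alike in every chaperone gene. Hsp83, the fly Hsp90, stood at 1895 CPM in dENL/AF9-IR replicate 3 and 2118 CPM in NTC IR-2 replicate 2, but at 256 and 260 CPM in NTC IR-1 replicates 1 and 2, below the other 8 libraries (362 to 606 CPM). DnaJ-1, the J-domain partner of inducible Hsp70, stood at 446 CPM and 268 CPM in dENL/AF9-IR replicate 3 and NTC IR-2 replicate 2, and at 145 and 148 CPM in NTC IR-1 replicates 1 and 2, within the 99.3 to 175 CPM of the other 8. Hsc70-4, the main constitutive relative, stood at 1606 and 1519 CPM in the first pair and at 987 and 980 CPM in the NTC IR-1 pair. The αγ element went the other way, with 11.9 and 11.4 CPM in NTC IR-1 replicates 1 and 2 and 1.75 and 1.74 CPM in the first pair.

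**Figure D5:**
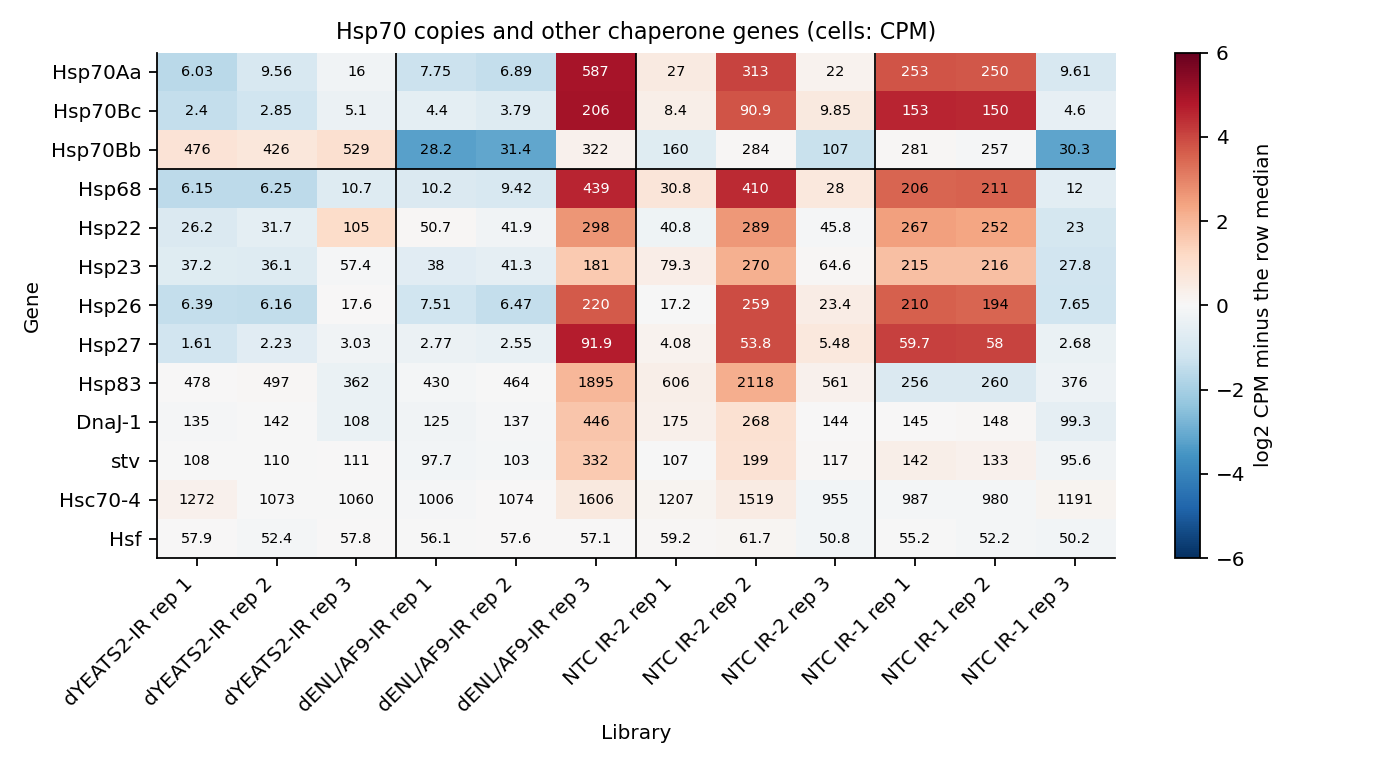
CPM of 3 Hsp70 copies and 10 other genes (rows) in the 12 libraries (columns); colour is log2 CPM minus the row's median over libraries and the number in each cell is CPM. Hsp70Aa, Hsp70Bc, Hsp68 and the small heat shock genes are high in the same 4 libraries, while Hsp83 is high in only 2 of them.

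Tested over all 12661 rows with edgeR's quasi-likelihood test (FDR under 0.05), 52 listed genes of the pathway gave 1 call in dYEATS2-IR against NTC IR-1, 1.92% of them, where 4.77% of all rows were called, 2.42% higher and 2.35% lower. Their median log2 fold change was 0.08, against -0.02 over all rows, but the lists differed. It was -1.73 for the 13 inducible genes, 0.18 for the constitutive relatives, 0.12 for the co-chaperones and 0.09 for the transcription genes. Unadjusted edgeR p was under 0.05 for 5 of the 13 inducible genes, 10 of the 52 and 2724 of all 12661 rows. NTC IR-1 replicates 1 and 2 are among the 4 libraries above 200 CPM of Hsp70Aa. The 1 call was Droj2, a DnaJ-type co-chaperone, which rose to 446.5 ± 24.1 CPM in dYEATS2-IR, against 324.5 ± 29.2 CPM in NTC IR-1 (log2 fold change 0.46, SE 0.106, edgeR FDR 0.0343). It stayed under the threshold with NTC IR-1 replicate 3 left out (FDR 0.0171) and was lost with any of the other 5 libraries left out (FDR 0.0761 to 0.177). Hsp68, with 7.697 ± 2.59 CPM in dYEATS2-IR and 142.8 ± 113 CPM in NTC IR-1, did not pass (log2 fold change -4.21, SE 1.67, edgeR FDR 0.172). Hsf averaged 56.02 ± 3.11 CPM in dYEATS2-IR and 52.54 ± 2.53 CPM in NTC IR-1 and did not pass either (0.09, edgeR FDR 0.593).

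Between dENL/AF9-IR and its NTC IR-2 controls, edgeR called 0 of the 52 genes and 0% of all rows; 1 of the 52 had an unadjusted p under 0.05, and DESeq2 called 0 of the 52. Over all rows 661 had such a p, and DESeq2 called 30. Hsp68 averaged 152.7 ± 248 CPM in dENL/AF9-IR and 156.4 ± 220 CPM in NTC IR-2 (log2 fold change -0.03, SE 1.45).

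Between the control groups, NTC IR-2 against NTC IR-1, 11 of 52 genes (21.2%) rose and 0 fell, where 19.5% of all rows were called, 10.3% higher and 9.16% lower. Co-chaperones gave 6 of the 11 calls, of 13 tested: jdp (log2 fold change 1.06, edgeR FDR 0.0021), Droj2 (0.71, FDR 0.00255), Csp (0.52, FDR 0.00584), mrj (0.49, FDR 0.0319), HIP-R (0.35, FDR 0.035) and HIP (0.29, FDR 0.0318). Of the neuron markers, nSyb (0.64, edgeR FDR 0.0017), brp (0.74, FDR 0.00872) and Syt1 (0.51, FDR 0.0273) rose in NTC IR-2 too. The remaining neuron marker, elav, was not called (0.29, FDR 0.134). The part of neuron content in the co-chaperone calls was not tested. Of the co-chaperones, jdp, Droj2, Csp and mrj encode J-domain proteins, and HIP and HIP-R encode relatives of the Hsp70-interacting protein. The jdp gene averaged 1016 ± 69.9 CPM in NTC IR-2 and 488.1 ± 87.1 CPM in NTC IR-1. Transcription genes gave 4 of 19: the ELL gene Su(Tpl) (0.69, FDR 0.00759), Parp (0.62, FDR 0.00356), the ELL partner Eaf (0.50, FDR 0.00648) and ear (0.39, FDR 0.0401). The inducible genes gave 1 of 13, Hsp67Ba (0.62, FDR 0.00707), and the constitutive relatives 0 of 7, with 1 at an unadjusted p under 0.05 and 1 called by DESeq2. Hsp83 averaged 1095 ± 886 CPM in NTC IR-2 and 297.4 ± 68 CPM in NTC IR-1 and missed the threshold (1.88, FDR 0.0528). Scaling by library totals alone left 4 of the 52 called, with 3 up and 1 down. The count was 7 when NTC IR-1 replicate 1 or replicate 2 was left out, and without the 4 libraries above 200 CPM of Hsp70Aa it was 0.

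Of 23 tested genes within 20 kb of a copy, transposable elements not counted, 2 rose in dYEATS2-IR against NTC IR-1 and 0 fell, 8.7% of them, where 4.77% of all rows were called. Cad87A, a cadherin gene left of Hsp70Aa, averaged 59.44 ± 3.6 CPM in dYEATS2-IR and 45.47 ± 4.7 CPM in NTC IR-1 (log2 fold change 0.39, edgeR FDR 0.0487). GC1, a mitochondrial glutamate carrier gene right of Hsp70Ab, averaged 71.78 ± 2.65 CPM in dYEATS2-IR and 54.42 ± 5.93 CPM in NTC IR-1 (0.40, FDR 0.0442). Both calls were lost with any 1 library other than NTC IR-1 replicate 3 left out, with FDR from 0.0887 to 0.219. In NTC IR-2 against NTC IR-1, 2 of the 23 rose and 0 fell, again 8.7%, where 19.5% of all rows were called: Cad87A (0.46, edgeR FDR 0.0097) and CG12213 (0.29, FDR 0.0464), both lost without NTC IR-1 replicate 1 or replicate 2. For dENL/AF9-IR, edgeR and DESeq2 each called 0 of the 23, and 0 had an unadjusted p under 0.05. Hsp70Bb's nearest annotated neighbours, the pseudogenes CR46154 and CR46155 on either side of it, did not share its level. CR46154 averaged 0.6358 ± 0.0324 CPM in dYEATS2-IR and 1.187 ± 0.256 CPM in NTC IR-1. CR46155 averaged 0.5092 ± 0.0353 CPM in dYEATS2-IR and 1.162 ± 0.108 CPM in NTC IR-1, and neither was called (edgeR FDR 0.171 and 0.0703). Both rest on only 16 to 63 counts per library, and CR46154 lies closer to Hsp70Bbb than to Hsp70Bb.

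Over the 12 libraries, which split into 4 high and 8 low ones, the genes other than the Hsp70 copies whose log2 CPM was most like that of Hsp70Aa were Hsp27 (Pearson r 0.989), Hsp26 (0.987), Hsp68 (0.987), CR43482 (0.982) and Hsp23 (0.964). CR43482 is an annotated pseudogene at 3L 9386112 to 9386463, in the locus that also holds Hsp22, Hsp23, Hsp26 and Hsp27. For the summed 87C copies, again with the Hsp70 copies left out, the most like were CCT7 (0.885), gig (0.863), GPHR (0.853), Gclm (0.84) and CG11619 (0.84). Spearman rho was 0.65 for gig and 0.748 to 0.888 for the rest of these. Likeness here is not size of change: CCT7 ran from 15.7 to 29.7 CPM, the summed 87C copies from 39.9 to 760 CPM. These values describe 12 points that share their libraries, and no test is attached.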

How the data were processed

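Gene counts were deposited by the authors as a table of raw counts, one column per library. Per the labels' protocols, libraries were made with a stranded mRNA kit. The submitters' processing notes name FastQC 0.12.0, Trim Galore 0.6.5, HISAT2, SAMtools, UMI-tools, Picard and DESeq2, and builds BDGP6 and dm6; strand use in counting is not given in the sources used here. A deposited table of size-factor-normalized signal served to check names: each of its columns was a constant multiple of 1 count column (tolerance 0.0001) under another group's name. For 2 NTC IR-2 libraries the labels' column names point to other libraries, and the library name was used. Counts were fitted in edgeR 4.0.16 (R 4.3.3; TMM, filterByExpr, quasi-likelihood F test, all 12 libraries, Benjamini-Hochberg over 12661 rows), which was tested on simulated data. CPM is the count scaled to TMM-adjusted library size; DESeq2 1.42.0 was an alternative. The members and lists were chosen with earlier results of these data known. Named were the copies, targets, 7 preset heat shock genes, called list genes and neighbours, and the 5 most alike. Labels give 50 heads per replicate and no more, so p-values measure only the spread between these libraries. No 2 libraries of a group agreed within sampling noise (chi-square per degree of freedom 43.1 or more).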

Additional observations from a re-analysis of the deposited data

How the results depend on the processing

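The doubts that weigh most are the group names and the 4 libraries above 200 CPM of Hsp70Aa. Under the names of the normalized table, dYEATS2-IR against NTC IR-1 gave 0 genes called in all and 0 of the listed genes, with -0.85 for the summed 87A copies (log2), -1.12 for 87C and 0.28 for 87A minus 87C. dENL/AF9-IR against NTC IR-2 then gave 604 genes, 1 listed gene, 3.03 for 87A and 3.93 for 87A minus 87C. NTC IR-2 against NTC IR-1 gave 1161 genes, 6 listed genes and -3.54 for 87A minus 87C. Log2 fold changes that turned round under these names were, in dYEATS2-IR against NTC IR-1, Cad87A -0.09 and Droj2 -0.12, and among genes not called DnaJ-1 0.27, Hsf -0.01, Hsp83 -0.24 and stv 0.33. In NTC IR-2 against NTC IR-1 they were CG12213 -0.10, Cad87A -0.08, Csp -0.39, Droj2 -0.25, Eaf -0.14, HIP -0.18, HIP-R -0.45, Hsp67Ba -0.49, Parp -0.40, Su(Tpl) -0.48, ear -0.16, jdp -0.79 and mrj -0.56, and among genes not called DnaJ-1 -0.61, Hsc70-4 -0.11, Hsf -0.03, Hsp68 -4.34, Hsp83 -1.30, lncRNA:Hsromega -0.36 and stv -0.36. For dENL/AF9-IR, Hsp68 turned to 4.21. The cause of the disagreement in names was not tested.

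Leaving out the 4 libraries, chosen after seeing the data, left NTC IR-1 with 1 library, assumed to vary like the others. It gave 117 genes called and 0 listed ones in dYEATS2-IR against NTC IR-1, with 0.20 for 87A, 3.57 for 87C and -3.37 for 87A minus 87C. It gave 3 genes for dENL/AF9-IR over NTC IR-2, and 105 genes, 0 listed ones and 1.93 for 87C in NTC IR-2 against NTC IR-1. Taking 87C without Hsp70Bb, also chosen after seeing the data, gave -2.03 for 87C and -0.99 for 87A minus 87C in dYEATS2-IR against NTC IR-1, in place of 0.90 and -3.93. Without the 4 libraries, log2 fold changes of genes not called turned to 0.33 (DnaJ-1), -0.11 (Hsc70-4) and 0.16 (stv) in dYEATS2-IR against NTC IR-1, to -0.28 (DnaJ-1), 0.05 (Hsf) and -0.16 (stv) for dENL/AF9-IR, and to -0.17 (Hsc70-4) in NTC IR-2 against NTC IR-1.

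For dYEATS2-IR against NTC IR-1, 604 genes became 1167 with the DESeq2 Wald test, 392 with only the 6 libraries compared, 346 with no filter and 334 with the replicate block. The listed genes called became 3 with the Wald test and 0 with DESeq2 size factors, with no filter, with the 6 libraries and with the replicate block. For NTC IR-2 against NTC IR-1, 940 genes were called with the 6 libraries, and listed genes numbered 5 with the 6 libraries, 4 with library totals, and 7 with no filter and with the replicate block. dENL/AF9-IR against NTC IR-2 gave 30 genes with the Wald test. Library totals alone moved the split of calls to 510 higher and 214 lower in dYEATS2-IR against NTC IR-1, where it was 307 and 297, and to 554 and 1581 in NTC IR-2 against NTC IR-1, where it was 1307 and 1160. Library totals also turned DnaJ-1 to 0.05 in dYEATS2-IR against NTC IR-1, Hsf to 0.04 for dENL/AF9-IR, and Hsf to -0.03 and Hsp68 to -0.03 in NTC IR-2 against NTC IR-1, none called; no filter turned Hsf to 0.01 for dENL/AF9-IR, and the replicate block turned Hsp68 to -0.47 in NTC IR-2 against NTC IR-1. Same-numbered libraries did not deviate together (r from -0.226 to 0.019), so the replicate numbers are not taken as pairs.

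Leaving out 1 library at a time gave 153 to 1012 genes called in dYEATS2-IR against NTC IR-1 (without NTC IR-1 replicate 2 and replicate 3), 0 to 19 for dENL/AF9-IR over NTC IR-2 (19 without NTC IR-2 replicate 3) and 973 to 2977 in NTC IR-2 against NTC IR-1 (without NTC IR-1 replicate 1 and replicate 3). Listed genes called ran over 0 to 2 and over 7 to 13 in dYEATS2-IR and in NTC IR-2 against NTC IR-1. The log2 difference of the summed 87A copies ran over -4.64 to -2.22, -2.95 to 0.40 and -2.20 to 0.23 in the 3 comparisons, that of 87C over -0.43 to 1.59, -2.53 to -0.40 and -1.54 to 0.49, and 87A minus 87C over -4.21 to -3.59, -0.43 to 0.99 and -1.10 to 0.04. Uncalled genes that changed sign when 1 library was left out were DnaJ-1 (-0.19 to 0.08) in dYEATS2-IR against NTC IR-1, DnaJ-1 (-0.58 to 0.58), Hsf (-0.08 to 0.05), Hsp68 (-3.99 to 2.37), Hsp83 (-1.29 to 0.67) and stv (-0.49 to 0.66) for dENL/AF9-IR, and Hsp68 (-2.28 to 0.63) and stv (-0.14 to 0.36) in NTC IR-2 against NTC IR-1. Among 552 alternative values for 37 genes and comparisons, 397 kept direction and call, 95 kept direction and lost the call, 3 gained it and 57 turned round, 42 of them of genes not called.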
